A study of Mus musculus with 14 samples.

Results

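TMEM176A, TMEM176B, TPPP3, CLEC10A and CLEC4B1 are 5 of the 24982 genes counted in sorted colonic macrophages, and all 5 were among the 13136 genes that passed the filter on low counts. They were picked because fewer of their reads were counted in macrophages of mice lacking both the interleukin-10 receptor alpha chain and the chemokine receptor CCR2 than in macrophages of mice lacking the interleukin-10 receptor alpha chain alone. The rule set no size that a difference had to reach. That difference is therefore given here as a description, and nothing is drawn from the calls printed for the 5 genes in that comparison.

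RNA was sequenced from 14 libraries, 1 mouse each, of 5-week-old C57BL/6 mice that all carried the Cdcs1 colitis-susceptibility interval. WT mice were labelled Cdcs1 with no deletion named (5 libraries), and the labels do not say whether any were heterozygous for Il10ra or Ccr2. IL10RAKO mice were Cdcs1, Il10ra -/- (4 libraries), DKO mice were Cdcs1, Il10ra -/-, Ccr2 -/- (4 libraries), and the CCR2KO mouse was Cdcs1, Ccr2 -/- (1 library). The cells came from the lamina propria of colon and cecum and were sorted as CD45+, CD103-, Ly6G-, CD64+CD11b+, Ly6C-MHCII+ macrophages. Between 12153000 and 21216468 reads were counted per library. Both deletions were present in every cell of the animal. A level in a sorted macrophage may therefore also reflect the gut around it, which in Il10ra -/- mice was prone to colitis. This was not tested. Levels are counts per 1000000 reads (CPM) after scaling by the trimmed mean of M values (TMM), and group values are the mean ± SD of 4 mice unless stated otherwise.

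TMEM176A and TMEM176B are membrane-spanning proteins related to the MS4A family and form cation channels in endosomal and phagosomal membranes of myeloid cells, where TMEM176B is known as a brake on the NLRP3 inflammasome. TPPP3 binds and bundles microtubules. CLEC10A, also called MGL1, is a C-type lectin that takes up glycans ending in galactose or N-acetylgalactosamine and is a familiar marker of alternatively activated macrophages and of some dendritic cells. CLEC4B1, also called DCAR, is a C-type lectin receptor of monocyte-derived cells that signals through an Fc receptor adaptor chain. As further background, colonic macrophages are renewed from blood monocytes that need CCR2 to leave the bone marrow, and interleukin-10 restrains their response to microbes.

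Tmem176a (ENSMUSG00000023367) lies at chr6:48840919-48847071 on the plus strand of GRCm38 and Tmem176b (ENSMUSG00000029810) at chr6:48833818-48841496 on the minus strand. The genes stand head to head and their annotated first exons overlap. Reads from the overlap cannot be told apart where the counting did not use strand, and the strand setting is not given in the sources used here. Tppp3 (ENSMUSG00000014846) lies at chr8:105467493-105471526 on the minus strand. Clec10a (ENSMUSG00000000318) lies at chr11:70156197-70170834 on the plus strand, next to its close relative Mgl2. Clec4b1 (ENSMUSG00000030147) lies at chr6:123049962-123071555 on the plus strand, inside the cluster of Dectin-2-like lectins. For both lectins, reads shared with a near-identical relative could have been split or dropped by the counting, so their absolute levels are uncertain. None of the 5 genes is on chromosome 9, which holds both Ccr2 and Il10ra.

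Because the TMEM176 pair shares one stretch of promoter, its short motif matches are shown, with those of Clec4b1 for comparison. The 250 bases before each RefSeq start in GRCm38.p6 were searched on both strands for GAGGAA, the core of sites bound by PU.1 and related ETS factors, TTCNNNGAA, a STAT palindrome, and AGGTCA, a nuclear receptor site core. RefSeq promoters were at hand for Tmem176a, Tmem176b and Clec4b1. Across all 32851 promoters searched, 23.3% held GAGGAA, 7.02% held TTCNNNGAA and 14.0% held AGGTCA. Matches of GAGGAA, or of its reverse complement TTCCTC, are printed in capitals on the plus strand with 10 bases either side.
Tmem176 site nearer Tmem176b, chr6:48841482-48841507: acccaggttcTTCCTCctgccagggc
Tmem176 site nearer Tmem176a, chr6:48841570-48841595: cccggtcccaGAGGAAtcaggtaaga
Clec4b1 distal site, chr6:123049884-123049909: gtttttcaatTTCCTCtttcccacat
Clec4b1 proximal site, chr6:123049913-123049938: taaatcattaGAGGAAagtgcataat
The first site began 123 bases before the Tmem176b start at base 48841374 and 164 bases before the Tmem176a start at base 48841656. The second began 211 bases before that Tmem176b start and 76 bases before that Tmem176a start, so the same 2 sites lay in 1 window of each gene, read from opposite strands. The windows of the other 3 RefSeq starts of the pair held no match. The Clec4b1 sites began 68 and 39 bases before its start. Other annotated starts of the pair lie closer in, so both of its sites touch first exons of some transcripts. TTCNNNGAA and AGGTCA were not found in these windows. A match of this length describes the letters and not a bound site.

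The deleted genes followed the labels. CCR2 was at 593 ± 80.0 CPM in WT and 476 ± 128 CPM in IL10RAKO, against 5.67 ± 1.22 CPM in DKO and 4.30 CPM in the CCR2KO library. IL10RA was at 284 ± 70.1 CPM in WT and 182 CPM in the CCR2KO library, against 7.41 ± 2.67 CPM in IL10RAKO and 5.31 ± 2.12 CPM in DKO. Macrophage markers were abundant throughout, with the receptor CSF1R at 2451, 2847 and 3163 CPM and the complement gene C1QB at 2536, 2262 and 1792 CPM in WT, IL10RAKO and DKO. B cell markers were present as well, and CD79A stood at 336, 267 and 306 CPM in the same order. WT mouse 11 differed from the other WT libraries. It had the fewest counted reads, reads for 11670 genes against 13485 to 15402 in the other WT libraries, and a summed epithelial marker level of 3564 CPM against 53.1 to 1349 CPM. The study's own normalised table leaves this mouse out, and it is given separately below.

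TMEM176A fell in steps from WT through IL10RAKO to DKO. The 4 WT mice (mice 4, 5, 10 and 13) had 361, 343, 427 and 375 CPM. The 4 IL10RAKO mice (mice 1, 2, 7 and 8) had 196, 121, 216 and 235 CPM. The 4 DKO mice (mice 3, 9, 12 and 14) had 109, 108, 67.5 and 112 CPM. No mouse of one genotype reached the range of another, although IL10RAKO mouse 2 came close to the DKO mice. The means were 376 ± 35.8, 192 ± 49.8 and 98.9 ± 20.99 CPM. WT mouse 11 lay among the other WT mice at 347 CPM and the CCR2KO mouse just below them at 342 CPM. In bulk samples such as these, fewer cells that express a gene and less of its RNA in each cell cannot be told apart.

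TMEM176B was the most abundant of the 5 genes per kilobase of annotated exon, at 335 ± 44.0 CPM per kb in WT, against 98.8 ± 9.40 for TMEM176A, 99.6 ± 21.4 for TPPP3, 35.5 ± 9.69 for CLEC4B1 and 25.6 ± 3.18 for CLEC10A. Of these, TMEM176A and TPPP3 did not differ beyond their spread, nor did CLEC4B1 and CLEC10A. The 4 WT mice had 779.8, 682, 935 and 781 CPM of TMEM176B. The IL10RAKO mice had 479, 272.1, 532 and 552 CPM. The DKO mice had 223, 271.7, 169.9 and 251 CPM. The IL10RAKO and DKO groups met at their edges, where IL10RAKO mouse 2 exceeded DKO mouse 9 by less than 1 CPM. With relative log expression (RLE) scaling in place of TMM these groups overlapped, as described further on. The means were 794 ± 104, 459 ± 128 and 229 ± 44.0 CPM, with WT mouse 11 at 777 CPM and the CCR2KO mouse at 655 CPM.

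TPPP3, the microtubule-bundling protein, showed the same order with wider gaps. WT mice had 165, 154, 242 and 175 CPM. IL10RAKO mice had 76.8, 61.2, 52.7 and 82.0 CPM. DKO mice had 38.3, 32.6, 23.3 and 29.7 CPM. The 3 genotypes did not overlap, and the lowest IL10RAKO mouse was mouse 7, not mouse 2 as for the TMEM176 pair. The means were 184 ± 39.6, 68.1 ± 13.6 and 30.98 ± 6.23 CPM. WT mouse 11 had 220.0 CPM and the CCR2KO mouse 123 CPM, below the lowest WT mouse and above the highest IL10RAKO mouse.

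CLEC10A, the galactose-type lectin, was the member with overlap between WT and IL10RAKO. WT mice had 81.8, 64.0, 68.7 and 82.0 CPM. IL10RAKO mice had 77.6, 35.1, 39.7 and 46.8 CPM. DKO mice had 26.4, 23.5, 17.4 and 17.9 CPM. IL10RAKO mouse 1 lay inside the WT range, the other IL10RAKO mice lay below it, and every DKO mouse lay below every IL10RAKO mouse. The means were 74.1 ± 9.22, 49.8 ± 19.1 and 21.3 ± 4.42 CPM. WT mouse 11 had 45.4 CPM, within the IL10RAKO range, and the CCR2KO mouse had the highest level of all 14 libraries at 87.1 CPM.

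CLEC4B1, the DCAR receptor, had the steepest drop of the 5 genes and the fewest reads. WT mice had 21.1, 21.6, 35.4 and 33.4 CPM, from 368 to 854 reads. IL10RAKO mice had 2.99, 3.24, 3.54 and 3.43 CPM, from 43 to 70 reads. DKO mice had 0.828, 1.43, 0.633 and 1.83 CPM, from 9 to 37 reads. The IL10RAKO mice were nearly alike, with a coefficient of variation of 7.29%, whereas that of the DKO mice was 46.6%. The DKO values lay above the level of 3 reads, which was at most 0.211 CPM in these libraries. The means were 27.9 ± 7.60, 3.30 ± 0.241 and 1.18 ± 0.550 CPM, with WT mouse 11 at 16.9 CPM and the CCR2KO mouse at 20.4 CPM.

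**Figure D1:**
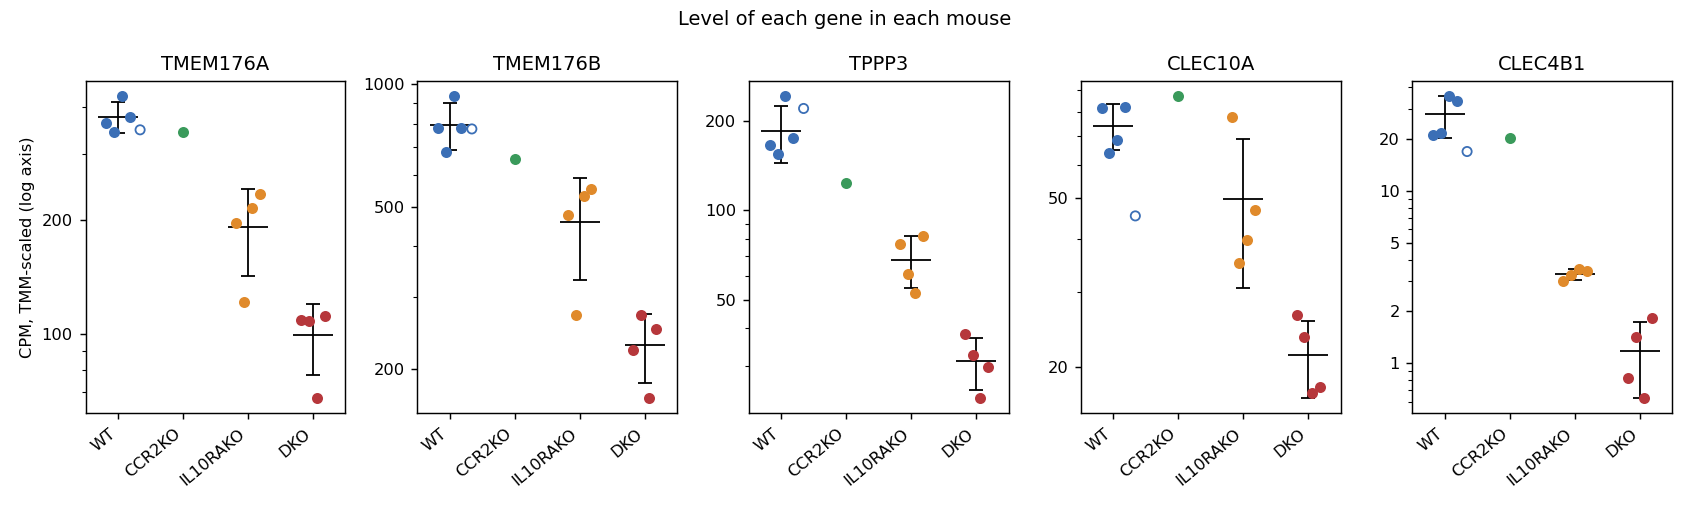
Level of each gene in each mouse, in TMM-scaled CPM on a log axis that differs between panels, by genotype. Filled points are mice, horizontal lines and whiskers the mean ± SD of 4 mice, and the open circle WT mouse 11, which is outside the mean. For every gene the CCR2KO mouse lies above all IL10RAKO and DKO mice, which the choice of genes that are low in DKO favoured. CLEC10A alone has an IL10RAKO mouse inside the range of the 4 WT mice.

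The difference between DKO and IL10RAKO, which chose the genes, was of similar size in all 5. The log2 fold change of DKO against IL10RAKO was -0.96 ± 0.21 (SE) for TMEM176A, -1.0 ± 0.22 for TMEM176B, -1.14 ± 0.20 for TPPP3, -1.22 ± 0.24 for CLEC10A and -1.46 ± 0.32 for CLEC4B1. Ranked from the lowest fold change of 13136 genes, the members took places 114 (CLEC4B1), 176 (CLEC10A), 208 (TPPP3), 270 (TMEM176B) and 300 (TMEM176A), so many genes outside the 5 fell as far or further. The 4 DKO mice were all below the lowest IL10RAKO mouse for 5 of 5 members, as the choice would favour, and for 1.28% of all genes tested. By edgeR's quasi-likelihood test with adjustment over all genes, 6 genes (0.0457%) passed an adjusted p of 0.05 in this contrast and none of the 5 members was among them. All 5 had an unadjusted p under 0.05, as did 388 genes in all. DESeq2 passed 24 genes, which included all 5 members. Without IL10RAKO mouse 2, edgeR passed 10 genes, 2 of them members. These counts describe the contrast the genes were chosen on and are no evidence for it.

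The loss of Il10ra was tested by setting the mean of the 2 Il10ra -/- groups against WT, which weighs IL10RAKO and DKO equally. Part of the DKO against IL10RAKO difference that chose the genes enters this contrast, and the DKO mice also lack Ccr2. The test is therefore not independent of the choice. IL10RAKO alone against WT moved less, from -0.57 (CLEC10A) to -3.07 (CLEC4B1) on the log2 scale, and is given below without a test. In this contrast all 5 genes were lower in the mean of the Il10ra -/- groups (edgeR quasi-likelihood test, Benjamini-Hochberg adjustment over 13136 genes). TMEM176A fell by 1.45 on the log2 scale (SE 0.17, 2.73-fold, adjusted p = 3.92e-05). TMEM176B fell by 1.29 (SE 0.18, 2.45-fold, adjusted p = 0.000134). The pair thus moved by nearly the same amount. TPPP3 fell by 2.00 on the log2 scale (SE 0.17, 4.01-fold, adjusted p = 1.68e-06). CLEC10A fell by 1.19 (SE 0.20, 2.27-fold, adjusted p = 0.000577). CLEC4B1 fell by 3.81 (SE 0.25, 14.0-fold, adjusted p = 2.89e-07). CLEC4B1 stood 18th of 13136 genes by p-value and TPPP3 61st, while the TMEM176 pair and CLEC10A came later at places 262, 422 and 702. Of all genes tested, 12.8% passed as lower and 11.3% as higher, with a median log2 fold change of -0.07. With library totals in place of TMM, the share of passing genes that were higher moved from 46.8% to 20% and the median of all genes to -0.36. The 5 members still passed as lower, by 1.47 (CLEC10A) to 4.10 (CLEC4B1) on the log2 scale, as did 25.3% of all genes tested.

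All 8 Il10ra -/- libraries lay below all 4 WT libraries for 4 of 5 members, CLEC10A being the exception, and for 6.9% of all genes. The full falling order of WT, IL10RAKO and DKO without overlap held for the same 4 members and for 0.244% of genes. The choice of the genes favoured its second step. Under RLE scaling the full order held for 3 members, since TMEM176B lost its gap between IL10RAKO and DKO, and under library totals for 5.

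Taken step by step, the log2 fold change of IL10RAKO against WT was -0.97 ± 0.21 (SE) for TMEM176A, -0.79 ± 0.22 for TMEM176B, -1.43 ± 0.20 for TPPP3, -0.57 ± 0.24 for CLEC10A and -3.07 ± 0.32 for CLEC4B1. That of DKO against WT was -1.93 ± 0.22, -1.80 ± 0.22, -2.57 ± 0.21, -1.80 ± 0.24 and -4.54 ± 0.35. These estimates use the libraries that chose the genes and carry no test. On the log2 scale, the share of the drop from WT to DKO already present in IL10RAKO was 35% for CLEC10A, 46.2% for TMEM176B, 51.7% for TMEM176A, 55.8% for TPPP3 and 66.6% for CLEC4B1. The size of the second step follows from how the genes were chosen, and the shares were not tested against each other. Without IL10RAKO mouse 1, the log2 fold change of CLEC10A was -0.86 for IL10RAKO against WT and -0.93 for DKO against IL10RAKO, so that its steps were of similar size.

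**Figure D2:**
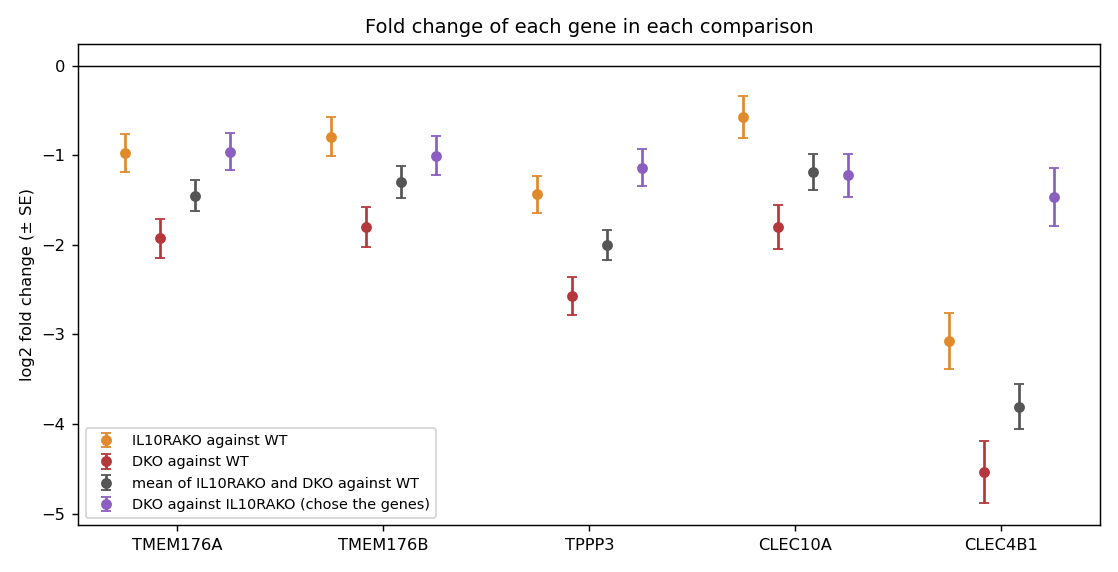
Log2 fold change (± SE) of each gene in 4 comparisons of 4 mice per genotype. The tested comparison is the mean of IL10RAKO and DKO against WT (grey), in which CLEC4B1 fell by 3.81 and the other genes by 1.19 to 2.00. The purple points are the difference that chose the genes, part of which also enters the grey points.

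The CCR2KO mouse, which lacks Ccr2 but has Il10ra, did not share the low levels of the DKO mice. Its level was 90.9% of the WT mean for TMEM176A, 82.4% for TMEM176B, 66.9% for TPPP3, 73.2% for CLEC4B1 and 117% for CLEC10A. It was above every IL10RAKO and every DKO mouse for all 5 genes, also under RLE scaling and library totals. The choice of genes that are low in DKO favoured this, and the share of all genes in this order was not counted. Against the DKO mean it was 3.46-fold higher for TMEM176A, 2.86-fold for TMEM176B, 3.98-fold for TPPP3, 4.09-fold for CLEC10A and 17.3-fold for CLEC4B1. It was, even so, outside the range of the 4 WT mice for all 5 genes, below it for 4 and above it for CLEC10A, whereas 54.8% of all genes lay inside that range. With RLE scaling 1 member and with library totals 2 members lay inside. With 1 library, whether Ccr2 loss acts differently with and without Il10ra was not tested.

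TMEM176A and TMEM176B also followed each other from mouse to mouse within a genotype, a variation that the choice did not use. Deviations of log2 CPM from the genotype means correlated with Pearson's r = 0.959 over 12 mice (exact permutation of mice within genotypes, two-sided p = 0.000651, 0.00651 after adjustment over the 10 pairs of members) and Spearman's rho = 0.888 (exact permutation p = 0.0026, adjusted p = 0.026). Without the 2 mice farthest from the median, IL10RAKO mouse 2 and DKO mouse 12, r was 0.872. Each gene was the other's closest match by r among all 13135 other genes, both across the 12 libraries (r = 0.992) and in these deviations. Reads from the overlapping first exons could have been counted for either gene, and their part in this correlation was not tested. The labels give no batch, so none could be separated.

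For the other 9 pairs, r lay between -0.09 and 0.57 and no adjusted p by r was under 0.05, the smallest being 0.101 (exact permutation). By rank, CLEC4B1 was related to TMEM176A (rho = 0.566, exact permutation, adjusted p = 0.0453) and to TMEM176B (rho = 0.657, adjusted p = 0.0453), but with library totals neither passed (exact permutation, adjusted p = 0.19 and 0.174). By r these 2 pairs passed without IL10RAKO mouse 1 (adjusted p = 0.013 for TMEM176A and 0.0376 for TMEM176B, exact permutation), and the first also without IL10RAKO mouse 2 (0.0203). Without IL10RAKO mouse 7, TPPP3 instead passed with TMEM176A (r = 0.798, exact permutation, adjusted p = 0.0145) and with TMEM176B (r = 0.739, adjusted p = 0.0434). CLEC10A showed no such relation with the pair. Its r with TMEM176A fell from 0.42 to -0.14 without the 2 farthest mice.

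**Figure D3:**
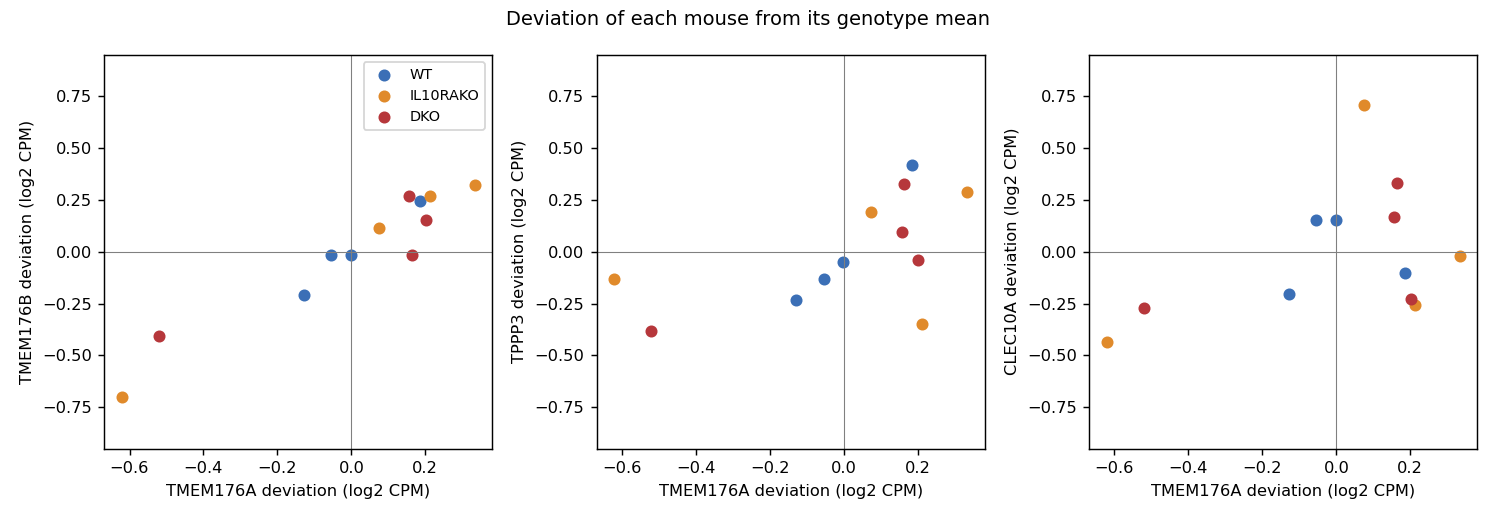
Deviation of each of 12 mice from its genotype mean in log2 CPM, with TMEM176A on the horizontal axis and TMEM176B, TPPP3 or CLEC10A on the vertical axis. The points of the TMEM176 pair lie along one line (r = 0.959), with IL10RAKO mouse 2 and DKO mouse 12 at its lower end, whereas those of the other pairs scatter (r = 0.574 for TPPP3 and 0.42 for CLEC10A).

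The ratio of TMEM176A to TMEM176B counts, in which the scaling of a library cancels, was 0.476 ± 0.0208 in WT, 0.422 ± 0.0180 in IL10RAKO and 0.432 ± 0.0434 in DKO. WT mice ranged from 0.456 to 0.503 and the 8 Il10ra -/- mice from 0.397 to 0.488. The CCR2KO library had the highest ratio, 0.523, and WT mouse 11 had 0.447. The mean log2 ratio was lower by 0.16 in Il10ra -/- mice (exact permutation test, two-sided p = 0.0222, smallest possible 0.00202). The groups overlapped through DKO mouse 3 at 0.488, and the p was 0.0667 without WT mouse 5 and 0.0545 without WT mouse 13.

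Apart from the members themselves, which were left out of these rankings, the genes whose levels most resembled the members across the 12 libraries were led by PPARG, a nuclear receptor of lipid handling in macrophages, which came first for TMEM176A (r = 0.986), TMEM176B (r = 0.980) and CLEC10A (r = 0.935). PPARG went from 22.5 ± 2.83 CPM in the WT group to 9.82 ± 2.82 with IL10RAKO and 3.86 ± 1.28 with DKO, and was at 23.0 CPM in the CCR2KO library. It repeated the falling order of the members from WT to DKO. SERPINF1, which encodes a secreted anti-angiogenic factor, and BATF3, a transcription factor of dendritic cells, followed for TMEM176A (r = 0.983 and 0.973), and RNF150 and SERPINF1 for TMEM176B (r = 0.969 and 0.967). IGFBP6, a binding protein of insulin-like growth factors, and HMGA2-PS1 followed for CLEC10A (r = 0.924 and 0.923).

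TPPP3 was most like the chemokine CCL6 (r = 0.978), followed by E230016K23RIK (r = 0.965) and the galactose-binding lectin LGALS1 (r = 0.963). CCL6 fell from 612 ± 144 CPM in WT to 286 ± 61.7 in IL10RAKO and 158 ± 20.4 in DKO. CLEC4B1 was most like the cytokine receptor LIFR (r = 0.973), RETNLA, a product of alternatively activated macrophages (r = 0.972), and CD93, a phagocytic receptor (r = 0.965). RETNLA went from 338 ± 54.1 CPM in WT to 5.67 ± 6.13 in IL10RAKO and 0.173 ± 0.346 in DKO, with 120.0 CPM in the CCR2KO library. These correlations carry the genotype differences that chose the members and are descriptions.

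With the genotype means removed, and the members again left out, the closest genes were others. SLC25A10 and IDH2, both of mitochondrial metabolism, came first and second for TMEM176A (r = 0.955 and 0.943) and for TMEM176B (r = 0.936 and 0.924), followed by SERPINF1 (r = 0.934) and by the nucleoside transporter SLC29A1 (r = 0.924). For TPPP3 they included POLR2F (r = 0.980) and TMEM50A (r = 0.962), for CLEC10A EXOSC5, 1700037H04RIK and CLTB (r = 0.914 to 0.927), and for CLEC4B1 FAM110B, its cluster neighbour CLEC4A2 and FGD5 (r = 0.888 to 0.937). CLEC4A2 was the one gene of these that also neighbours its member on the chromosome.

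Among the relatives of CLEC10A, the fall was shared. Of 12 other galactose-type, mannose-type and DC-SIGN-type lectins, 10 were tested and 8 fell with Il10ra loss, none rose, and the median log2 fold change was -2.62 (adjusted over all genes, edgeR). MGL2, the neighbour and closest relative, fell from 342 ± 121 CPM in WT to 76.1 ± 47.0 in IL10RAKO and 51.6 ± 11.3 in DKO (log2 fold change -2.45, SE 0.30, adjusted p = 4.65e-05). The mannose receptor MRC1, the most abundant gene of the list, fell from 480 ± 83.8 to 113 ± 81.3 and 51.7 ± 21.2 CPM (log2 fold change -2.65, SE 0.35, adjusted p = 8.71e-05). CD209F and CD209G, relatives of DC-SIGN, fell by 4.63 (adjusted p = 2.94e-05) and 4.62 (adjusted p = 0.000199). CLEC10A therefore had the smallest estimated drop of the 11. In DKO against IL10RAKO none of the 10 passed (edgeR; 3 at an unadjusted p under 0.05), with a median of -0.88. In the CCR2KO library MGL2 was at 486 CPM and MRC1 at 265 CPM.

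The relatives of CLEC4B1 in the Dectin-2 cluster moved in both directions. Of 8, 7 were tested, 3 rose and 2 fell with Il10ra loss, with a median of -0.53. CLEC4E (Mincle), CLEC4D (MCL) and CLEC4N (Dectin-2), which bind microbial glycolipids and mannans, rose. CLEC4E went from 79.5 CPM in WT to 915 in IL10RAKO and 800.4 in DKO (log2 fold change 3.43, SE 0.36, adjusted p = 1.21e-05), CLEC4D rose by 2.68 (adjusted p = 3.28e-05) and CLEC4N by 1.43 (adjusted p = 0.000608). CLEC4A2, an inhibitory receptor, fell by 1.38 (SE 0.21, adjusted p = 0.000293), from 105 ± 26 CPM in WT to 52.1 ± 8.36 in IL10RAKO and 31.2 ± 12.2 in DKO. CLEC4A3 fell by 0.53 (adjusted p = 0.0387), from 219 ± 25.3 CPM in WT to 191 ± 48.2 in IL10RAKO and 121 ± 29.1 in DKO. Its WT and IL10RAKO levels overlapped within their SD, so its fall lay mostly in the DKO mice, which also lack Ccr2. CLEC4A1 and CLEC4A4 did not pass under TMM, and passed as lower with library totals, where 4 of the 7 fell. CLEC4B1 had the largest drop of the 8 genes of the cluster that were tested. In DKO against IL10RAKO none of the 7 passed (edgeR; 2 at an unadjusted p under 0.05).

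**Figure D4:**
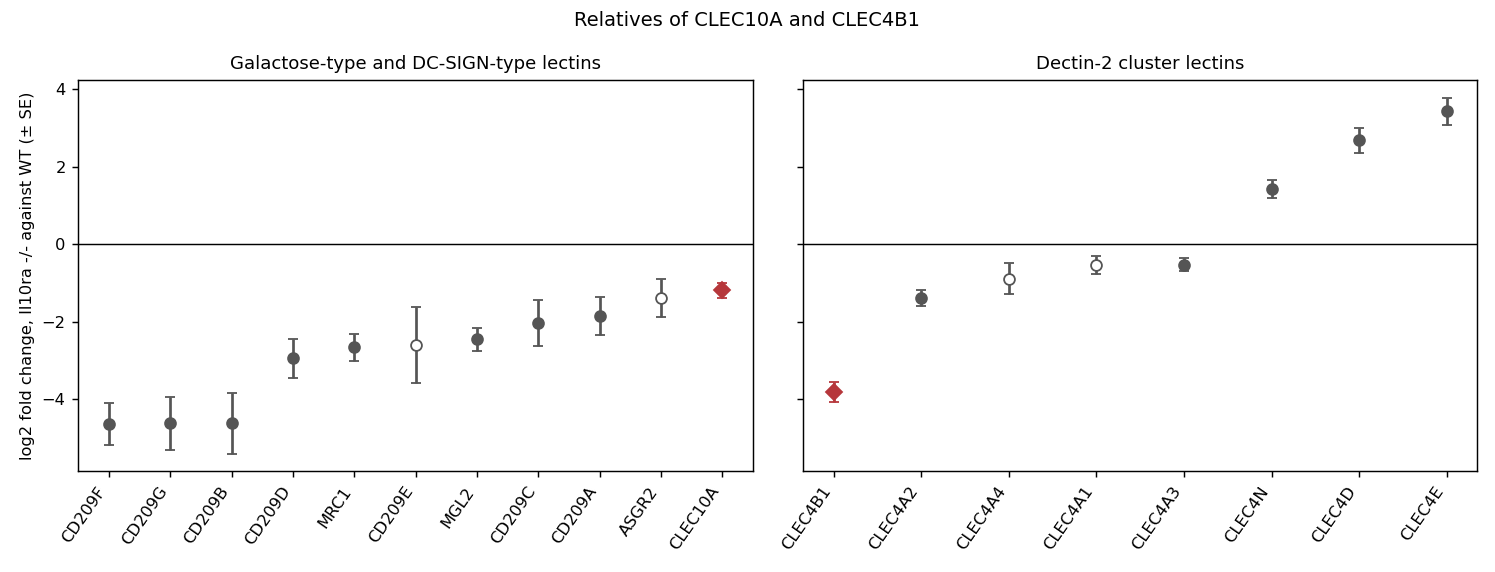
Log2 fold change (± SE) with Il10ra loss, mean of IL10RAKO and DKO against WT, for the tested relatives of CLEC10A (left) and of CLEC4B1 (right). Diamonds are the 2 members, filled symbols passed an adjusted p of 0.05 and open symbols did not. All lectins on the left lie below 0, and those on the right reach from -3.81 (CLEC4B1) to 3.43 (CLEC4E).

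The relatives of the TMEM176 pair were also divided. Of the MS4A genes, 10 were tested, 2 rose and 3 fell, with a median of -0.09. MS4A7, a macrophage surface protein, fell by 1.83 (SE 0.26, adjusted p = 0.000157), from 466 ± 180.0 CPM in WT to 152 ± 58.8 and 113 ± 32.6. MS4A4C and MS4A6D rose by 1.08 (adjusted p = 0.00211) and 0.97 (adjusted p = 0.0036), whereas MS4A4A, the most abundant, was at 376, 392 and 291 CPM in WT, IL10RAKO and DKO and did not pass (adjusted p = 0.483). In the TPPP family, TPPP fell by 3.92 (adjusted p = 0.000185), from 17.6 CPM in WT to 1.33 in IL10RAKO and 1.01 in DKO. Of 15 tubulins and microtubule-stabilising proteins tested, TPPP among them, 3 fell and 1, TUBA4A, rose by 1.55 (adjusted p = 0.000167). The median of this list was 0.03, and -0.25 with library totals.

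Among genes of the processes in which TMEM176B is known to act, more rose than fell in the inflammasome and MHC class II lists under TMM. Of 12 NLRP3 inflammasome genes, 4 rose and 1 fell with Il10ra loss (4 and 4 with library totals). IL1A and IL1B, cytokines released through inflammasome activation, rose by 4.42 (adjusted p = 2.8e-07) and 1.97 (adjusted p = 5.93e-06), and IL1B reached 12510 CPM in IL10RAKO and 9823 in DKO against 2838 in WT. The pore-forming GSDMD rose by 1.08 (adjusted p = 0.000111), TXNIP fell by 1.17 (adjusted p = 0.000714), and NLRP3 itself, at 95.4, 184 and 158 CPM in WT, IL10RAKO and DKO, did not pass (adjusted p = 0.136). Of 15 genes of MHC class II presentation, 4 rose, among them the protease CTSS by 0.82 (adjusted p = 0.00316), and the list's median of 0.27 became -0.02 with library totals. Of 14 endolysosomal channels and transporters, 2 rose, led by the chloride transporter CLCN7 with a log2 fold change of 1.59 (adjusted p = 0.000111), and 3 fell, led by the sodium-proton exchanger SLC9A9 with one of -1.27 (adjusted p = 0.00124). None of these genes passed in DKO against IL10RAKO (edgeR; 3, 2 and 2 of the 3 lists at an unadjusted p under 0.05). Whether the level of TMEM176B bears on these genes was not tested.

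Markers of tissue-resident macrophages moved with the members. Of 9, 8 fell with Il10ra loss, with a median of -3.66. The coagulation factor subunit F13A1 fell by 4.65 (adjusted p = 1.19e-09), the folate receptor FOLR2 fell by 5.94 (adjusted p = 1.46e-07) and the scavenger receptor CD163 fell by 5.37 (adjusted p = 9.57e-07), whereas TIMD4 did not pass (adjusted p = 0.245). Their summed level was 1316, 1500, 1487 and 1646 CPM in WT mice. It was 219, 133, 426 and 257 CPM in IL10RAKO mice and 138, 173, 162 and 237 CPM in DKO mice. IL10RAKO and DKO mice overlapped in this sum. In DKO against IL10RAKO the median of the list was -0.89, and none of the 9 passed (edgeR; 3 at an unadjusted p under 0.05). The CCR2KO library had 1252 CPM and WT mouse 11 had 823 CPM. Of 14 mature macrophage markers, 4 fell, among them APOE, the most abundant, by 0.89 (adjusted p = 0.00732), and none rose, whereas 8 fell with library totals and 1 rose with RLE scaling. The part of these cells in the fall of the members was not tested.

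Fibroblast markers were also higher in WT. Of 9, 8 fell with Il10ra loss, with a median of -3.70, and COL3A1, a fibrillar collagen and the most abundant, went from 251 CPM in WT to 13.0 in IL10RAKO and 18.2 in DKO. Their summed level was 322, 649, 339 and 613 CPM in WT mice. It was 58.0, 30.0, 26.6 and 19.5 CPM in IL10RAKO mice and 20.4, 23.1, 39.8 and 73.1 CPM in DKO mice. In DKO against IL10RAKO the median of the list was 0.18, opposite in sign to the members, and the groups overlapped. It was 748 CPM in the CCR2KO library and 292 CPM in WT mouse 11. 2 further non-immune lists fell in part, with 2 of 9 epithelial markers (median -1.63) and 3 of 5 endothelial markers (median -1.72) lower, or 6 of 9 and 5 of 5 with library totals. MUC2 fell by 4.04 (adjusted p = 0.00786) and EMCN fell by 4.45 (adjusted p = 3.28e-05). KRT8, the most abundant epithelial marker, was at 190.0 ± 287, 43.2 ± 24.85 and 62.8 ± 18.6 CPM and did not pass (adjusted p = 0.0761). The summed epithelial level was uneven in WT, at 53.1, 259, 1349 and 161 CPM in mice 4, 5, 10 and 13. It was 41.9 to 202 CPM in IL10RAKO and 157 to 246 CPM in DKO mice, so WT mouse 10 stood apart. The part of these cells in the levels of the members, TPPP3 included, was not tested.

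**Figure D5:**
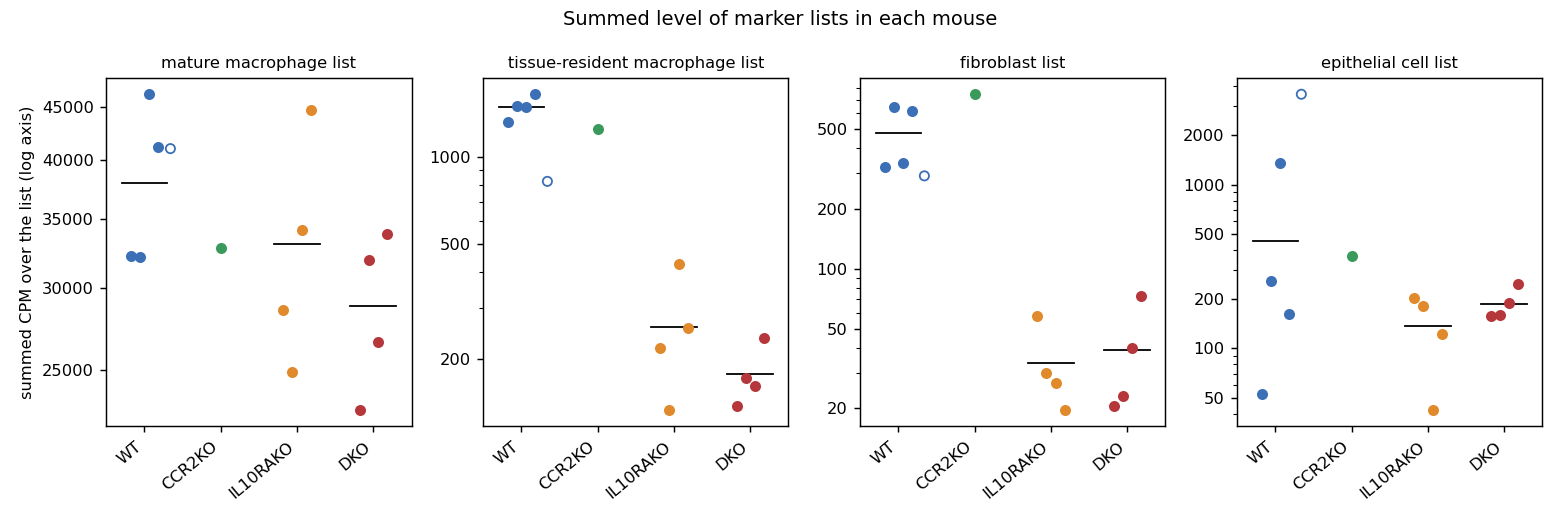
Summed CPM of 4 marker lists in each mouse on a log axis that differs between panels, with horizontal lines at the mean of 4 mice and an open circle for WT mouse 11. Tissue-resident macrophage and fibroblast sums separate WT and the CCR2KO mouse from all Il10ra -/- mice, whereas IL10RAKO and DKO mice overlap in every panel.

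Other immune lists moved differently from the members. Of 14 monocyte markers, 5 rose and 1 fell, the latter being CCR2 itself, deleted in DKO, which was also the one gene of all lists to pass in DKO against IL10RAKO (edgeR; adjusted p = 6.55e-09). With library totals 3 fell, and the median of the list was 0.09 against 0.39. LY6C2 rose by 3.86 (adjusted p = 2.76e-06), from 6.50 CPM in WT to 109 in IL10RAKO and 81.8 in DKO. Of 14 conventional dendritic cell markers 6 rose and 1, CD209A, fell (log2 fold change -1.85, adjusted p = 0.0138), and of 10 cDC1 markers 4 rose and 1, BATF3, fell (log2 fold change -1.04, adjusted p = 0.000714). Of 9 neutrophil markers 7 rose and 1, MMP9, fell, although S100A9 and CAMP were at 0 in the 4 WT libraries and LY6G did not exceed 0.385 CPM as a group mean. For lymphocytes, 1 of 9 T and NK cell markers and 1 of 9 B and plasma cell markers rose and none fell (2 T and NK cell markers with library totals), and of 4 mast cell and eosinophil markers 1 rose, HDC.

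The sex of the mice is not given in the labels used here, and sex-linked transcripts were unevenly spread over the genotypes. XIST, the RNA of the inactive X chromosome, and 4 Y-linked genes (DDX3Y, UTY, KDM5D and EIF2S3Y) divided the libraries without overlap. Y-linked transcripts, at 150 to 196 CPM in sum with no XIST read, were found in 1 of 4 WT, 2 of 4 IL10RAKO and 3 of 4 DKO libraries. WT mouse 11 also had them, at 191 CPM. The other 6 fitted libraries and the CCR2KO library had XIST at 43.6 to 313 CPM and at most 7 Y-linked reads. The share of libraries with Y-linked transcripts thus rose in the order in which the members fell. None of these 5 genes passed for Il10ra loss (edgeR, unadjusted or adjusted), with standard errors of 1.55 to 1.69 on the log2 scale. A term for this division was added to the fit after seeing the data. In the same contrast all 5 members were still lower, with log2 fold changes of -1.52 for TMEM176A, -1.38 for TMEM176B, -2.06 for TPPP3, -1.14 for CLEC10A and -3.80 for CLEC4B1 (edgeR, largest adjusted p = 0.00251). These values again include part of the difference that chose the genes. IL10RAKO alone against WT was then -0.55 (CLEC10A) to -3.07 (CLEC4B1), without a test. Among libraries with Y-linked transcripts TMEM176A was at 427 CPM in the WT mouse and at means of 226 CPM in IL10RAKO and 94.8 CPM in DKO, and among those with XIST at means of 360 CPM in WT and 159 CPM in IL10RAKO and at 112 CPM in the DKO mouse. Within each kind of library the 3 genotypes fell in this order without overlap for all 5 members, except CLEC10A, whose WT and IL10RAKO mice with XIST overlapped. With 1 to 3 mice per genotype and kind of library these values carry no test. The choice of the genes favoured the step from IL10RAKO to DKO, and the share of all genes in this order was not counted.

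The chromosomal neighbours did not move with the members as a block. Within 250 kb of the TMEM176 pair, 14 of 21 genes were tested, 2 fell (AOC1 and REPIN1) and none rose, and the GIMAP genes beside the pair did not pass. REPIN1 fell by 0.87 (adjusted p = 0.0222), and AOC1 had 3.47 CPM in WT and 0.573 CPM in DKO and was at 0 in IL10RAKO. Around Tppp3, 27 of 33 were tested, PLEKHG4 rose and RIPOR1 fell. Around Clec10a, 19 of 29 were tested, CTDNEP1 rose and MGL2, GPS2 and NEURL4 fell, of which MGL2 fell by 2.45 and the other two by less than 1 on the log2 scale. Around Clec4b1, 11 of 14 were tested, and beside the lectins described above the complement receptor C3AR1 fell by 1.15 (SE 0.21, adjusted p = 0.00114), from 464 to 277 and 157 CPM. No neighbour passed in DKO against IL10RAKO (edgeR; 1, 2, 0 and 3 of those tested around the TMEM176 pair, Tppp3, Clec10a and Clec4b1 had an unadjusted p under 0.05).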

How the data were processed

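RNA of sorted macrophages was converted to SmartSeq v4 cDNA and sequenced from both ends. STAR 2.5.1b and the mm10 genome were used by the authors, who deposited raw read counts per gene without normalization. The authors also deposited edgeR 3.34.0 pseudocounts of 12 libraries, a score per gene adjusted to a common library size, used here in 1 alternative. The annotation, strand setting and rule for multi-mapping reads are not given in the sources used here.

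The 5 genes and the gene lists were chosen with earlier results of these data known. Genotypes came from the sample labels. Counts of 12 libraries (4 WT, 4 IL10RAKO, 4 DKO), those of the pseudocount table, were fitted together in R 4.3.3 with edgeR 4.0.16 (filterByExpr, minimum count 10, TMM, glmQLFit, glmQLFTest, Benjamini-Hochberg adjustment, threshold 0.05). WT mouse 11 was added in an alternative, and the CCR2KO library entered no test. Correlations and resembling genes used log2 CPM with a prior count of 2. The text names the members, the deleted genes, the 3 genes most like each member, neighbours within 250 kb, and from each list the most abundant gene and up to 4 with the smallest p. CSF1R, C1QB, NLRP3, TIMD4, CD209A, MMP9, S100A9, CAMP and LY6G were named outside this rule, after their values were seen. Some results that this rule selects are not reported here. Of 24982 symbols, 24498 matched GENCODE vM21, which supplied positions and exon lengths. Alternatives were other scalings, filters and tests (DESeq2 1.42.0, limma 3.58.1 on pseudocounts) and leaving out each mouse. Mice of a group differed by more than sampling noise. P-values cover the spread between mice.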

Additional observations from a re-analysis of the deposited data

Results flagged for a closer look

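The TMEM176A level of DKO mouse 12, 67.5 CPM, stood far below those of the other 3 DKO mice (108, 109 and 112 CPM), by Dixon's criterion for a group of 4. It was the 1 value set apart among 24 groups of values examined, and chance sets apart about 5% of such groups. DKO mouse 12 also had the lowest levels of TMEM176B, TPPP3, CLEC10A and CLEC4B1 of its group.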

How the results depend on the processing

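The choice of genes on the DKO and IL10RAKO libraries, 4 mice per genotype, 1 CCR2KO library and unstated strand and multi-mapping rules limit these results, and 9 reads of CLEC4B1 in DKO mouse 12 limit its lowest level. All 5 members passed as lower with Il10ra loss under every alternative that tested them. Of all genes tested, 12.8% passed as lower under TMM and 25.3% with library totals. Each alternative used the same contrast, which includes part of the DKO against IL10RAKO difference that chose the genes. With at least 10 reads required in every library 4 passed and CLEC4B1 was not tested. Their largest adjusted p over all alternatives was 0.000238 for TMEM176A, 0.00079 for TMEM176B, 1.12e-05 for TPPP3, 0.003 for CLEC10A and 2.35e-06 for CLEC4B1. Genes passing for Il10ra loss numbered 3163 and ranged from 2505 (without WT mouse 13) to 4161 (library totals). Genes passing in DKO against IL10RAKO numbered 6 in the main analysis and 24 with DESeq2, and from 4 to 10 with a mouse left out, the highest without IL10RAKO mouse 2; the cause was not tested. The difference in mean log2 ratio of TMEM176A to TMEM176B ranged from -0.19 to -0.13 with a mouse left out, and its exact permutation p rose to 0.0667 without WT mouse 5 and 0.0545 without WT mouse 13. The number of related pairs of members by r ranged from 1 to 3 with a mouse left out. There were 431 alternative values of the members' fold changes and of their CCR2KO level against the WT mean. Values for Il10ra loss were compared by whether they passed, and the others by the spread between mice. By these measures 1 value changed and none changed sign. It was TPPP3 in IL10RAKO against WT, at -1.76 with library totals. The alternatives for single WT contrasts, for the CCR2KO library and with a term for sex-linked transcripts (2697 genes passing for Il10ra loss) were added after the data were seen. No paired analysis was possible because the groups hold different mice and the labels give them no shared numbers.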
